A study of Mus musculus with 11 samples.

Results

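The question was which transcripts changed differently between a cell line and its source tissue in one mouse strain than in the other. For each gene the measure was the tsA58 line minus tsA58 tissue, less the C57BL/6J line minus C57BL/6J tissue, and it is called the strain difference below. All 11 arrays of the series entered it, and each of 18193 genes was represented by the single-symbol probe set of highest mean level. Of these genes, 13285 passed a filter on low values and were tested. The strain difference equals the difference between the lines (tsA58 minus C57BL/6J, the line difference) less the difference between the tissues (tsA58 minus C57BL/6J, the tissue difference), so each result can be traced to its line and tissue parts.

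Each line is a single clone of progenitor cells for the interstitial cells of Cajal (ICC), and there is 1 clone per strain. The wild-type clone 2xSCS2F10, here the C57BL/6J line, was kept at 37 °C in a neural stem cell medium with 5% chick embryo extract (3 arrays). Clone 2xSCS70, here the tsA58 line, derives from the H-2Kb-tsA58 strain. Its transgene is a temperature-sensitive SV40 large T antigen driven by the interferon-inducible promoter of a class I histocompatibility gene. This line was kept at 39.5 °C without interferon-gamma (3 arrays). For that line the labels name no chick embryo extract. The source tissue was the muscular wall of the stomach of each strain (2 arrays of C57BL/6J, 3 of H-2Kb-tsA58), and the labels give no age or sex. Strain, transgene, temperature, medium, clone and the sex read from sex-linked transcripts (below) differ together between the lines and cannot be told apart. The titles call the arrays of a group biological replicates, but nothing says that they came from separate cultures or animals, so p-values measure only the spread between these arrays. The transcript of the transgene was not analysed here.

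ICC are pacemaker and signalling cells between the enteric nerves and smooth muscle of the gut, and they depend on the receptor Kit. At 39.5 °C the temperature-sensitive T antigen is unstable, whereas the active protein binds p53 and Rb family proteins and drives cells into the cycle. Type I and type II interferons act through STAT and IRF factors on a shared set of antiviral and antigen presentation genes, many of which carry an interferon-stimulated response element near their start. Genes of DNA replication are in turn driven by E2F factors once Rb family proteins release them.

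Levels below are log2 intensities and differences are log2 units, so that a difference of 1 is 2-fold. A gene was called when its difference was at least 2-fold with an adjusted p below 0.05 (limma, Benjamini-Hochberg over all genes tested). Differences carry ± their standard error. The values carry no detection calls, so a level near or below the array medians of 4.66 to 4.84 is read only as low. Replicate arrays correlated at 0.956 to 0.991 across probe sets, and tsA58 line array 3 stood apart from its group. It lay at 19 on the second principal component, against 62.71 and 67.55 for the other tsA58 line arrays and -56.32 to -48.04 for the C57BL/6J line. Technical probe sets also moved with strain. The hybridisation controls averaged 9.33 to 9.90 in the C57BL/6J line and 7.93 to 8.26 in the tsA58 line, 10.77 and 10.96 in C57BL/6J tissue and 7.52 to 9.66 in tsA58 tissue, and their part in the results was not tested beyond the alternative scaling given below.

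The labels were checked against marker genes. Kit stood at 3.35 to 3.87 in the C57BL/6J line and at 3.16 to 3.79 in the tsA58 line, below the array medians in all 6 line arrays. It read 6.83 and 7.47 in C57BL/6J tissue and 7.34 to 8.61 in tsA58 tissue. The 10 tested markers of mature ICC averaged 4.91 to 5.14 in the C57BL/6J line and 4.91 to 5.23 in the tsA58 line. The smooth muscle list averaged at least 10.15 on every tissue array and at most 6.94 on every line array. Both lines thus lacked array signal above the median for the defining ICC receptor, and the tissues carried strong smooth muscle signal. Xist, transcribed from the inactive X chromosome, read 11.58 to 11.73 in the C57BL/6J line and 4.91 to 5.07 in the tsA58 line, while the Y-linked Eif2s3y read 3.02 to 3.24 and 7.38 to 8.13. The tissue arrays were mixed. C57BL/6J tissue array 1 held both Xist (10.12) and Eif2s3y (7.91), array 2 held Eif2s3y (8.09) with Xist at 5.47, and of the tsA58 tissue arrays only array 2 held Xist (9.32) without Eif2s3y (2.92). Sex-linked transcripts therefore differ between the lines, and the strain differences of Xist (-5.12 ± 1.89, adjusted p = 0.0762), Eif2s3y (5.67 ± 1.94, adjusted p = 0.0586), Kdm5d (3.88 ± 1.27, adjusted p = 0.0505) and Uty (1.26 ± 0.63, adjusted p = 0.178) did not pass the threshold. These calls depended on the setting, since Kdm5d passed in 8 of 21 alternatives, Eif2s3y in 5, Xist in 3 and Uty in 1. Kdm5d passed with quantile normalisation (3.87, adjusted p = 0.0455) and with each tsA58 tissue array left out in turn, where it lay between 2.53 (array 2 left out) and 4.57. Eif2s3y was at 3.61 without tsA58 tissue array 2. Xist was at -7.44 without C57BL/6J tissue array 1 and at -2.79 without array 2. Of 3 genes often variable between mouse strains, the mitochondrial transhydrogenase Nnt, which is partly deleted in C57BL/6J, was called. It read 7.13 to 7.68 in the C57BL/6J line and 9.30 to 9.88 on all other arrays, C57BL/6J tissue included (strain difference 1.83 ± 0.31, adjusted p = 0.00343). Whether its probe set lies in the deleted part was not examined, so it does not check the labels. Wdfy1 (-0.48 ± 0.26) and Ide (0.72 ± 0.32) were not called.

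The strain difference was called for 2702 of the 13285 genes, 20.3%. Of these, 970 were higher (7.30% of the genes tested) and 1732 lower (13.0%), and the median over all genes was -0.18. The balance between higher and lower calls moved with scaling, since 35.9% of the calls were higher in the deposited scaling, 47.2% after cyclic loess (1221 of 2586) and 22.0% after centring on the hybridisation controls (127 of 577). These scalings moved the median over all genes by 0.11 and -0.64. Leaving out either array of C57BL/6J tissue lowered the calls to 1485 (without array 1) and 1505 (without array 2). Without C57BL/6J line array 1 there were 633 higher calls. Without tsA58 line array 3 there were 3700 calls in all, 1592 higher and 2108 lower. The share of all genes called, against which each list below is read, moved with them. It was 3.65% higher and 7.53% lower without C57BL/6J tissue array 1, 3.44% and 7.89% without array 2, and 12.0% and 15.9% without tsA58 line array 3. Counts in lists of this size rest on few genes, and a share near that of all genes is no result about the list.

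**Figure D1:**
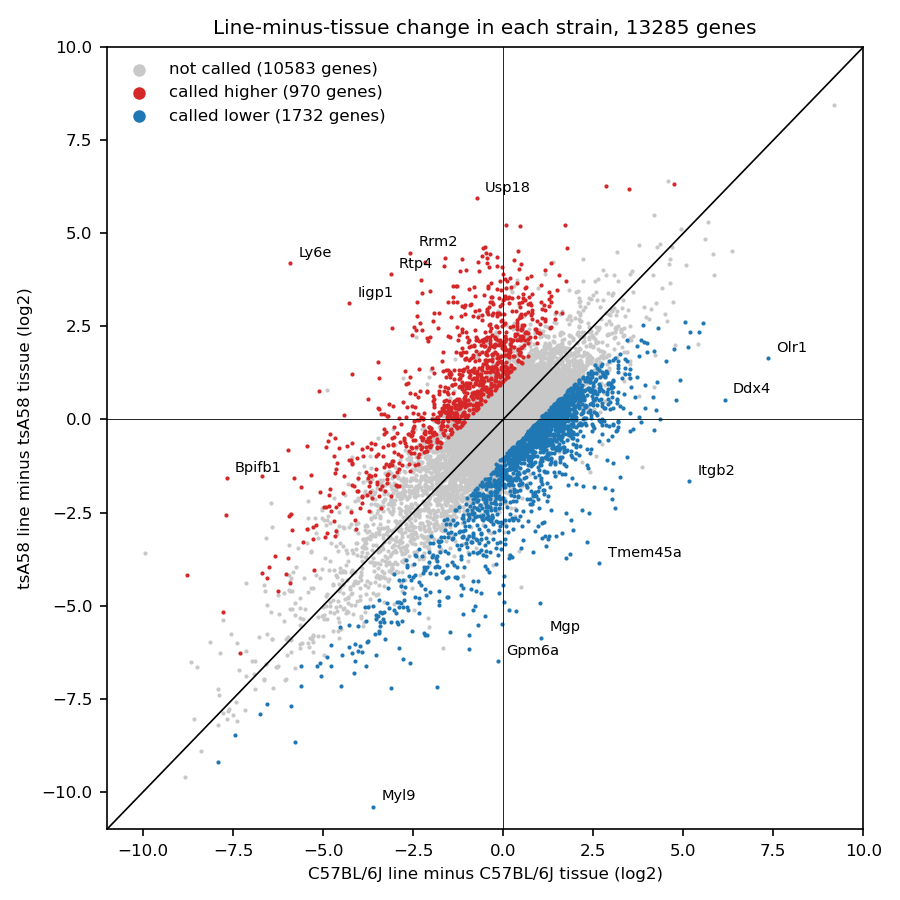
Line-minus-tissue change of each of the 13285 genes in the C57BL/6J strain (horizontal axis, log2) and in the tsA58 strain (vertical axis, log2), with the line of equal change. Points coloured red (970) and blue (1732) are genes called higher and lower in the strain difference. Ly6e lies far above the line of equal change and Mgp, Itgb2 and Myl9 far below it.

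In the deposited scaling the higher and lower calls differed in where they arose. Among the 970 higher genes the line difference was the larger part for 646 and the tissue difference for 324. Among the 1732 lower genes the order turned, with 675 and 1057. In 477 higher genes the lines differed by at least 2-fold while the tissues differed by less than 2-fold either way, and in 201 the reverse held. For lower genes these counts were 383 and 685. The median line difference was 1.35 and the median tissue difference -0.66 over the higher genes, against -0.64 and 0.95 over the lower ones. These medians describe genes chosen by the sum of both parts and are given without a test. For scale, 8.38% and 5.77% of the genes tested were called higher and lower between the lines, and 9.56% and 3.21% between the tissues. The tissue calls moved with scaling. They were 1270 higher and 426 lower as deposited, 910 and 601 after quantile normalisation, and 849 and 549 after cyclic loess. The median tissue difference over all genes was 0.18, 0.06 and 0.05 in that order. The split into line and tissue parts was made in the deposited scaling only.

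**Figure D2:**
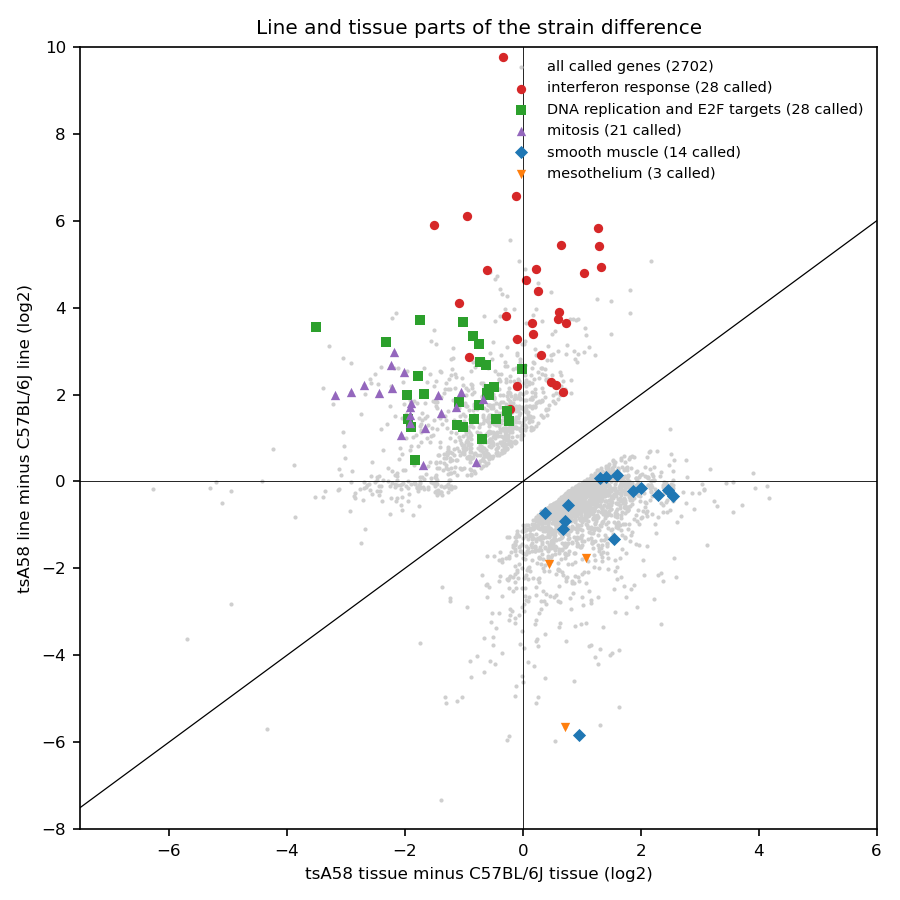
Tissue difference (horizontal axis, tsA58 minus C57BL/6J, log2) against line difference (vertical axis, tsA58 minus C57BL/6J, log2) for the 2702 called genes, with the line on which the strain difference is 0. Called interferon genes (28) lie high with tissue differences on both sides of 0, replication and mitosis genes lie up and to the left, and most called smooth muscle genes (14) lie to the right at line differences close to 0.

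The genes with the largest strain differences upward were led by interferon and replication genes. Ly6e, an interferon-induced surface protein, read 3.35, 2.88 and 3.37 in the C57BL/6J line and 8.84 and 9.41 in its tissue, against 12.96, 13.10 and 12.84 in the tsA58 line and 7.76, 10.22 and 8.36 in tsA58 tissue. The gene thus fell from tissue to line in one strain and rose in the other, and the tissues overlapped. Its strain difference was 10.11 ± 0.75 (adjusted p = 5.51e-05), and the other Ly6e probe set gave 4.19. The remaining genes among the 10 highest were Iigp1, Rrm2, Rtp4, Usp18, Pclaf, Bpifb1, Dscc1, Fignl1 and Macc1, described with their groups below.

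Interferon response genes were the clearest group. Of 33 tested, 28 were called higher (background 7.30%) and 0 lower, the median strain difference was 3.49 beside -0.18 over all genes, and all 33 lay above 0. Almost all of it lay in the lines: 32 of the 33 were called higher in the tsA58 line than in the C57BL/6J line (background 8.38%), with a median of 3.74. Between the tissues 2 were called higher and 0 lower, with a median of 0.25. Without tsA58 line array 3 the count was 31. With centring on the hybridisation controls it was 16 and the median 2.86.

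Usp18, the protease that removes ISG15 and damps interferon signalling, read 4.86, 4.02 and 4.52 in the C57BL/6J line and 10.90, 11.64 and 10.61 in the tsA58 line. In C57BL/6J tissue it read 4.75 and 5.67, and in tsA58 tissue 4.12, 7.01 and 4.16. Only the tsA58 line stood clear of the other groups, and the strain difference was 6.70 ± 1.01 (adjusted p = 0.00188). Rtp4, an interferon-induced regulator of viral sensing, was at 7.04 ± 0.87, with 4.47 to 5.62 in the C57BL/6J line and 10.65 to 11.56 in the tsA58 line. Iigp1, an immunity-related GTPase, was at 7.41 ± 0.96, with 3.43 to 3.66 and 8.21 to 10.33 in the same order. The tissues read 6.53 to 8.84 for Rtp4, between the lines, and 5.01 to 8.40 for Iigp1, where the highest tissue array overlapped tsA58 line array 3 (8.21).

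Of the 33 interferon genes, 23 had a promoter in the RefSeq table (GRCm38.p6), and 11 of these 23 (47.8%) held an element of 2 GAAA repeats with 2 bases between them, on either strand, within 250 bases before a start site. Among all genes tested that had a promoter in the table, 328 of 10663 (3.08%) held it. A match is a string of letters, not a measured binding site, and matches can overlap. Shown are 90-base stretches of 4 promoters with a match, which show the element's copies and spacing, with each match in capitals (written TTTC repeats where it lies on the other strand). Ifit1 lies at chr19:34640754-34640843 (plus strand), Rsad2 at chr12:26456523-26456612 (minus), Oas1a at chr5:120907526-120907615 (minus) and Gbp3 at chr3:142559954-142560043 (plus), each upstream of the gene's annotated start.
Ifit1: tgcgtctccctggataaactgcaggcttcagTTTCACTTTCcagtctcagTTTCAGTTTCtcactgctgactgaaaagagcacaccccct
Rsad2: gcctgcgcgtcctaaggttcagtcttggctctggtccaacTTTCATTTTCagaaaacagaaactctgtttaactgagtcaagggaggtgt
Oas1a: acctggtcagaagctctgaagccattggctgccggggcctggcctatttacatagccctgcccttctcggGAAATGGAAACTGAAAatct
Gbp3: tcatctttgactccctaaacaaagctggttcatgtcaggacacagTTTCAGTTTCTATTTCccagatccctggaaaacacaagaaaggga

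These 4 genes were chosen for their promoter match after their values were seen. Ifit1, which binds viral RNA caps, read 4.39 to 5.57 in the C57BL/6J line, 4.89 and 6.54 in its tissue, 9.11 to 10.42 in the tsA58 line, with 5.00 to 7.10 in tsA58 tissue (strain difference 4.66 ± 0.90, adjusted p = 0.00584). Rsad2, the antiviral enzyme viperin, was at 5.19 ± 0.49, and Oas1a, a 2',5'-oligoadenylate synthetase, at 5.47 ± 0.81. Gbp3, a guanylate-binding protein, was at 4.13 ± 0.46, with 4.45 to 4.92 in the C57BL/6J line and 9.54 to 10.37 in the tsA58 line. In all 4 the 3 tsA58 line arrays were the highest of the 11.

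Class I genes of antigen presentation were among the higher calls and class II genes among the lower. Of 16 genes tested 6 were called higher (37.5%, against 7.30% of all genes). The 2 lower calls (12.5%) were near the 13.0% of all genes, and the median was 0.52 (-0.12 when centred on the hybridisation controls). Nlrc5, the transactivator of class I genes, read 2.98 to 3.79 in the C57BL/6J line and 7.46 to 8.61 in the tsA58 line, with 3.04 to 4.56 in the tissues (5.14 ± 0.60, adjusted p = 0.000533). The class I genes H2-D1 and H2-K1 were at 2.67 ± 0.49 and 2.47 ± 0.55. H2-D1 stood at 8.19 to 8.41 in the C57BL/6J line and 12.22 to 12.82 in the tsA58 line, but 1 of its 5 other probe sets gave -0.27. The call of H2-K1 ended without C57BL/6J tissue array 2 (2.22, adjusted p = 0.0568), and without that array the list had 2 genes called higher (12.5%, against 3.44% of all genes). The peptide transporter gene Tap1 and the immunoproteasome genes Psmb8 and Psmb9 were the other higher calls. H2-Eb1, a class II gene, went the other way: it read 8.50 to 9.13 in the C57BL/6J line, 6.78 and 7.21 in its tissue, 4.66 to 5.05 in the tsA58 line, with 7.88 to 9.63 in tsA58 tissue (-5.46 ± 0.61, adjusted p = 0.000436). H2-Ab1, also of class II, was the second lower call.

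Secreted inflammatory factors as a list were called about as often as all genes when all arrays were used. Of 19 tested, 2 were called higher and 2 lower, 10.5% each way beside 7.30% and 13.0%. The interferon-inducible Cxcl10 (3.42 ± 0.44) and the chemokine Ccl5 (4.11 ± 0.48) were higher. Ccl5 read 4.46 to 4.97 in the C57BL/6J line and 8.68 to 9.63 in the tsA58 line, with 3.84 to 4.90 in the tissues. The neutrophil chemokines Cxcl1 (-3.01 ± 0.36) and Cxcl2 (-2.78 ± 0.34) were lower. Cxcl1 read 10.14 to 10.70 in the C57BL/6J line and 6.60 to 7.51 on every other array, so its strain difference lay in 1 group. Without tsA58 line array 3 the list had 3 higher and 7 lower calls, beside 1592 and 2108 of all 13285 genes. In that round its lower share was above that of all genes.

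DNA replication genes were higher throughout. All 28 tested were called higher (background 7.30%), and the median was 2.82. The lines held most of it: 24 of 28 were called higher in the tsA58 line (background 8.38%; median 2.01), and 7 were called lower in tsA58 tissue (background 3.21%; median -0.83). Without tsA58 line array 3 all 28 kept the call with a median of 3.24. The count was 20 or more whichever array was left out, and 9 with centring on the hybridisation controls.

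Rrm2, the small subunit of ribonucleotide reductase, read 6.53, 6.39 and 8.20 in the C57BL/6J line, 9.62 and 9.64 in C57BL/6J tissue, 10.56, 10.33 and 10.92 in the tsA58 line and 8.85, 5.49 and 4.04 in tsA58 tissue. Its strain difference of 7.07 ± 1.45 (adjusted p = 0.00737) was made of a line difference of 3.56 ± 0.96 and a tissue difference of -3.50 ± 1.08. Both parts thus counted nearly alike, and tsA58 tissue array 1 lay well above arrays 2 and 3. Cyclin E2 (Ccne2), which starts S phase, was at 5.54 ± 0.84, and it fell from tissue to line in C57BL/6J (-3.08) and rose in tsA58 (2.45). Cdc6, which loads the replicative helicase, was at 5.45 ± 0.87, and the helicase subunit Mcm5 at 4.69 ± 0.91. Cdc6 read 3.65 to 5.42 in the C57BL/6J line, 5.42 and 5.66 in its tissue, 6.96 to 8.74 in the tsA58 line, with 2.98 to 4.63 in tsA58 tissue. Beyond the list, the PCNA partner Pclaf (6.39 ± 1.44), the sister chromatid cohesion factor Dscc1 (6.03 ± 1.00) and the recombination ATPase Fignl1 (5.97 ± 0.97) were among the 10 highest genes. Dscc1 read 2.78 to 3.94 in the C57BL/6J line and 5.75 to 8.20 in the tsA58 line.

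Of the 28 replication genes 24 had a promoter in the RefSeq table, and 7 of the 24 (29.2%) held 1 of the E2F-type strings TTTCCCGC, TTTGGCGC, TTTGCCGC or TTTCGCGC on either strand within 250 bases before a start. Of the 10663 genes tested with a promoter, 399 (3.74%) did. The strings can overlap when both strands are read. Cdc6 (chr11:98907972-98908061, plus strand) and Mcm6 (chr1:128359736-128359825, minus strand) are shown for the matches, in capitals, the first with 1 and the second with 3.
Cdc6: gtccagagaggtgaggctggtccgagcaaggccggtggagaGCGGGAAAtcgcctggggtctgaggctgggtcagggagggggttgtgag
Mcm6: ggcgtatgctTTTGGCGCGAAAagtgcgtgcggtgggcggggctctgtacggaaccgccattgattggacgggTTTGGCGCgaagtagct

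Mcm6, a further helicase subunit chosen for its promoter after the values were seen, read 8.72 to 9.65 in the C57BL/6J line, 9.26 on both arrays of its tissue, 10.32 to 11.66 in the tsA58 line, with 8.28 to 9.32 in tsA58 tissue. The strain difference was 2.71 ± 0.60 (adjusted p = 0.0109). The tsA58 line lay above every other array, and array 3 was its lowest.

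Mitosis genes moved with replication genes but with a wider spread within groups. All 27 tested lay above 0, from 1.26 to 5.17, with a median of 3.37, and 21 were called higher (background 7.30%). Between the lines 4 were called higher (background 8.38%; median 1.72) and between the tissues 3 were called lower (background 3.21%; median -1.92). The mean of the list was 6.89 to 8.04 in the C57BL/6J line, 7.62 and 7.65 in C57BL/6J tissue and 8.31 to 9.56 in the tsA58 line. In tsA58 tissue it was 7.63 on array 1 and 5.28 and 4.51 on arrays 2 and 3, so tsA58 tissue array 1 matched C57BL/6J tissue and the other two lay below. The count of calls followed single arrays. It was 1 of 27 without either C57BL/6J tissue array. That was near the share of all genes in those rounds (485 and 457 of 13285 called higher), so no excess of calls was left there. The count was 6 without C57BL/6J line array 1 or 2 or tsA58 line array 1, and 9 without tsA58 line array 2 or tsA58 tissue array 2. It was 10 without tsA58 tissue array 3, 27 without tsA58 tissue array 1 and 23 without tsA58 line array 3. The median stayed between 2.70 and 4.35 over all of these.

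Mki67, the proliferation marker, read 7.42, 6.90 and 8.56 in the C57BL/6J line, 10.06 and 9.99 in its tissue, 10.33, 10.15 and 8.35 in the tsA58 line and 9.42, 6.47 and 4.65 in tsA58 tissue (5.16 ± 1.50, adjusted p = 0.0319). The kinase Bub1 of the spindle checkpoint was at 5.17 ± 1.34, topoisomerase Top2a at 4.97 ± 1.44 and the chromosomal passenger survivin (Birc5) at 4.91 ± 1.32. In these 4 genes the call ended in 2 to 7 of 11 rounds that each left out 1 array, with adjusted p up to 0.0989, while the difference stayed between 3.80 and 6.45. In bulk samples, fewer cells of a type and less RNA per cell cannot be told apart.

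Regulators of the cycle moved less uniformly. Of 18 p53 targets 3 were called higher (Gtse1, Ccng1 and Bbc3) and 1 lower (Sesn1), 16.7% and 5.56% beside 7.30% and 13.0% of all genes. Without tsA58 line array 3 there were 8 higher (44.4% beside 12.0%), and without C57BL/6J tissue array 1 there was 1 (5.56% beside 3.65%). Gtse1, a p53-regulated gene of G2 and mitosis, read 6.03 to 6.24 in the C57BL/6J line, 8.04 to 8.72 in the tsA58 line, with 5.39 to 5.91 in the tissues (2.34 ± 0.32, adjusted p = 0.00115). Of 13 CDK inhibitors and Rb family genes 0 were called higher and 2 lower (Rbl2 and Cdkn2c; 15.4%, near the 13.0% of all genes), with 0 lower without C57BL/6J tissue array 2.

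**Figure D3:**
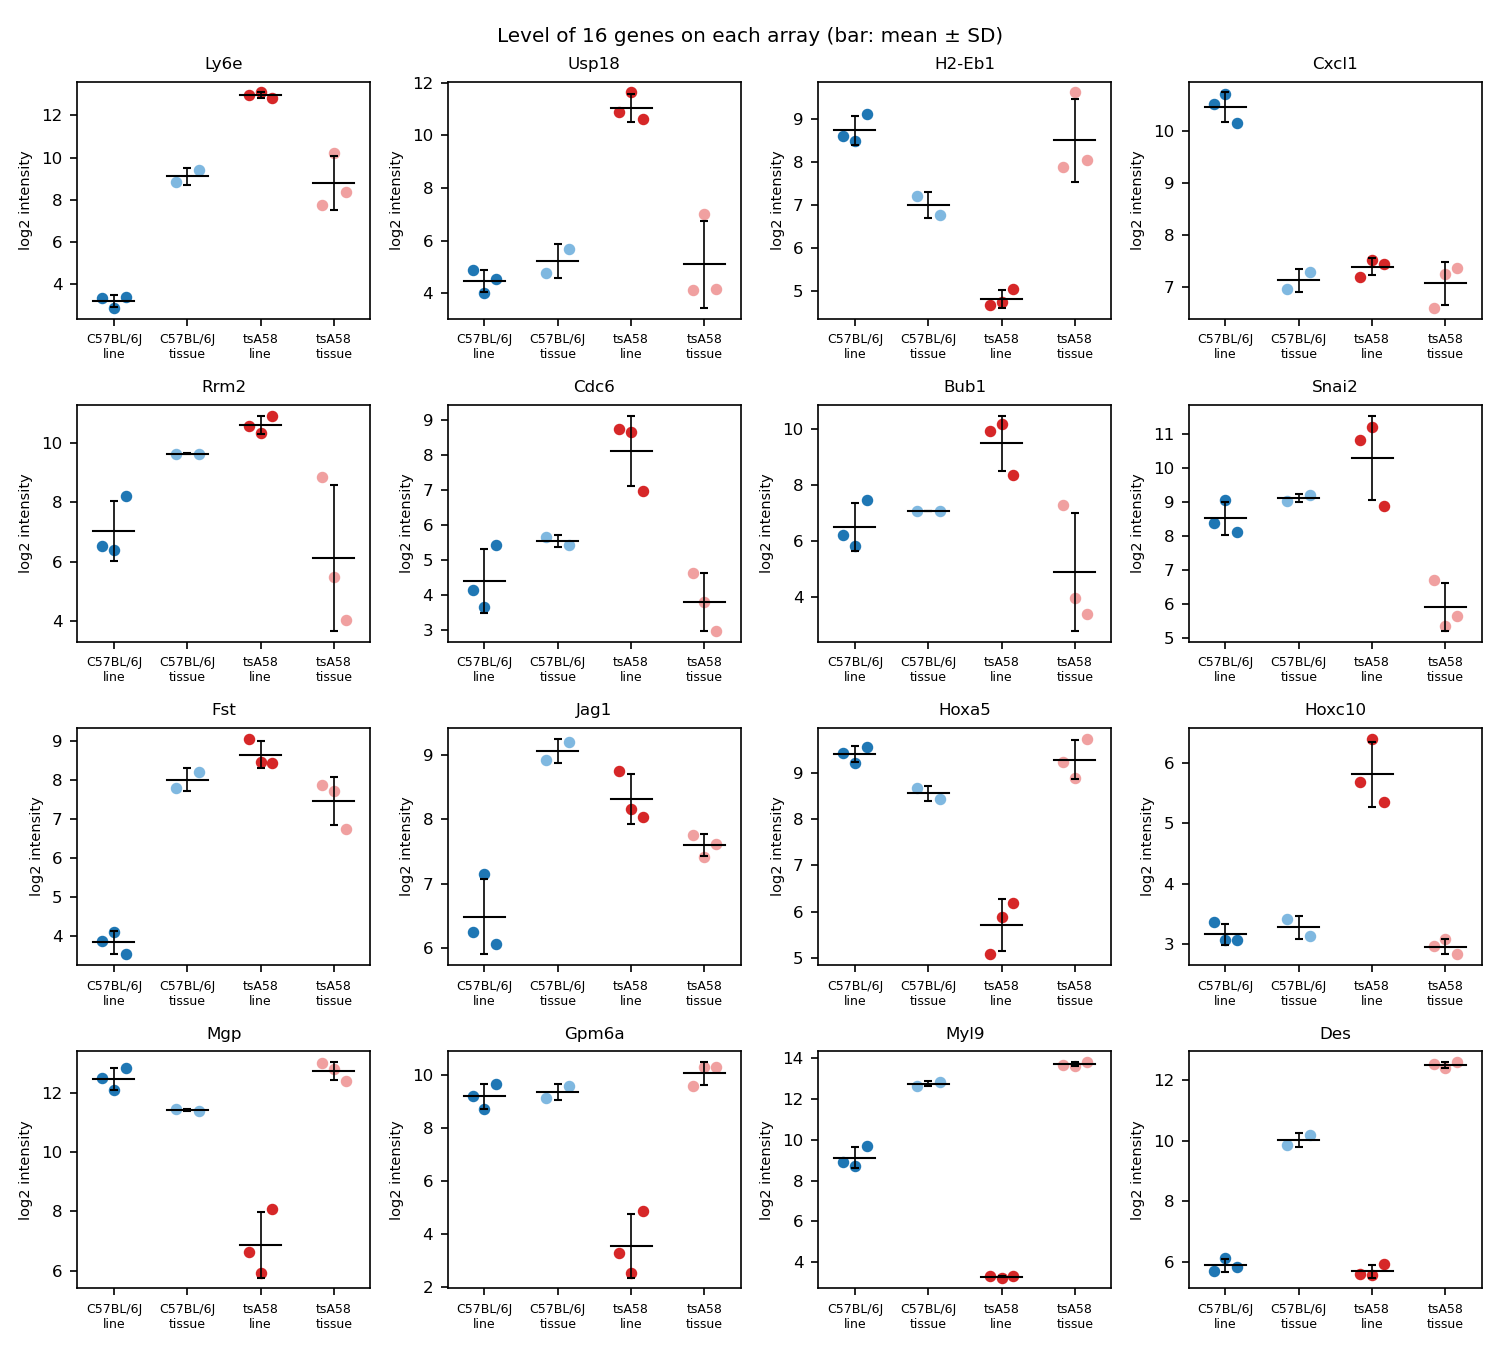
Log2 intensity of 16 genes on each array, by group (C57BL/6J line, 3 arrays; C57BL/6J tissue, 2; tsA58 line, 3; tsA58 tissue, 3), with the group mean and SD as black bars. Ly6e and Usp18 are highest in the tsA58 line, Rrm2 and Bub1 combine high tsA58 line levels with low levels on tsA58 tissue arrays 2 and 3, and Des separates the tissues while the lines overlap.

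Several of the largest strain differences downward came with levels in the tsA58 line below those of all other groups. Mgp, a matrix inhibitor of calcification, read 12.49, 12.09 and 12.82 in the C57BL/6J line, 11.45 and 11.39 in its tissue, 6.63, 5.91 and 8.07 in the tsA58 line and 12.99, 12.81 and 12.39 in tsA58 tissue (-6.91 ± 0.67, adjusted p = 0.000244). Tmem45a, a transmembrane protein, read 9.29 to 9.81 in the C57BL/6J line, 3.35 to 3.67 in the tsA58 line, with 6.59 to 7.61 in the tissues (-6.53 ± 0.35, adjusted p = 1.17e-05). The lysosomal protease Ctsf was at -5.64 ± 0.36, with 8.39 to 8.71 and 4.88 to 5.68 in the lines and a tissue difference of 2.35 ± 0.26. These 3 genes were lower in every tsA58 line array than in any array of the other groups.

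Other genes were higher on every C57BL/6J line array than on any array of the other groups. Itgb2, the beta subunit of leukocyte integrins, read 10.21, 9.95 and 9.58 in the C57BL/6J line and 4.11 to 7.52 on the other 8 arrays (-6.83 ± 0.71, adjusted p = 0.000317). Ddx4, an RNA helicase of germ cells, read 8.48, 8.18 and 9.97 there and 2.32 to 3.64 elsewhere (-5.62 ± 0.64, adjusted p = 0.000495). Olr1, a receptor for oxidised lipoprotein, read 10.03 to 10.60 in the C57BL/6J line, 2.91 and 2.81 on tsA58 line arrays 1 and 2, 7.50 on array 3 and 2.63 to 3.06 in the tissues (-5.69 ± 1.46, adjusted p = 0.0192; -7.24 without array 3). Its call ended without C57BL/6J tissue array 1 (adjusted p = 0.0664) or 2 (adjusted p = 0.0700). For Itgb2 and Ddx4, array 3 was also the highest of the tsA58 line.

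Some strain differences came from tissue alone or from opposite changes. Bpifb1, a secreted protein of mucosal surfaces, read 12.99 and 12.45 in C57BL/6J tissue, 8.27, 5.65 and 5.42 in tsA58 tissue and 4.73 to 5.28 in both lines (6.10 ± 0.90, adjusted p = 0.00169). Macc1, a regulator of the Met receptor, was at 5.89 ± 1.01, with 2.38 to 2.98 in the C57BL/6J line, 4.48 to 6.81 in the tsA58 line, 7.68 and 7.93 in C57BL/6J tissue and 3.94 to 6.35 in tsA58 tissue. In all, 109 genes were called in opposite directions in the line-minus-tissue changes of the strains, 46 with the tsA58 change upward and 63 with it downward. For scale, 12.8% and 18.9% of genes were called higher and lower in the tsA58 change and 17.5% and 16.6% in the C57BL/6J change. Hmgcll1, a lyase of ketone body synthesis, and Chn1, a Rac GTPase-activating protein, were among those that rose in C57BL/6J (3.11 and 1.86) and fell in tsA58 (-2.38 and -3.61), with strain differences of -5.49 ± 0.44 and -5.47 ± 0.40.

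Mesothelium genes, which mark the serosal lining, were the list with the lowest median. Of 9 tested, 3 were called lower (background 13.0%), all 9 lay below 0 and the median was -2.56. Between the lines 6 were called lower in tsA58 (background 5.77%; median -2.50), and between the tissues 0 were called. The list averaged 9.29 to 10.05 in the C57BL/6J line, 8.68 and 8.87 in its tissue and 9.03 to 9.30 in tsA58 tissue. In the tsA58 line it averaged 6.75 and 5.82 on arrays 1 and 2 and 9.10 on array 3, which was at tissue level. Without array 3 all 9 genes were called lower, with a median of -3.25. Gpm6a, a membrane glycoprotein also found in mesothelium, read 8.73 to 9.66 in the C57BL/6J line, 3.28, 2.53 and 4.88 in the tsA58 line and 9.14 to 10.32 in the tissues (-6.35 ± 0.76, adjusted p = 0.000669). Mesothelin (Msln) was at -2.82 ± 0.52. The part of this array's distance on the second component in these values was not tested.

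Smooth muscle genes had 14 of 23 called lower (background 13.0%) and 0 higher, with a median of -1.44. Most of this lay in tissue: 10 were called higher in tsA58 tissue than in C57BL/6J tissue (background 9.56%; median 0.96), and 4 were called lower in the tsA58 line (background 5.77%; median -0.30). Desmin (Des), the muscle intermediate filament, read 9.86 and 10.18 in C57BL/6J tissue and 12.39 to 12.58 in tsA58 tissue, with 5.55 to 6.12 in both lines (-2.66 ± 0.27, adjusted p = 0.000317). The other Des probe set, above the array median on 2 arrays, gave -0.64. Smoothelin (Smtn) was at -2.88 ± 0.59 with a tissue difference of 2.54 ± 0.44, and the beta subunit of the large calcium-activated potassium channel (Kcnmb1) at -2.58 ± 0.36. Myl9, the regulatory myosin light chain, differed from these. It read 8.73 to 9.72 in the C57BL/6J line and 3.25 to 3.34 in the tsA58 line, with 12.66 to 13.82 in the tissues (-6.78 ± 0.35, adjusted p = 1.17e-05). Without C57BL/6J tissue array 1 the list had 8 lower calls, and without tsA58 line array 3 it had 17. Of 15 potassium channel genes tested 5 were called lower, 33.3% beside 13.0% of all genes. The count was 3 (20%) without either C57BL/6J tissue array (all genes 7.53% and 7.89%) or tsA58 tissue array 1 (all genes 13.2%). Kcnh2, a channel of the rapid delayed rectifier, was at -3.18 ± 0.47.

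Enteric neuron genes were called lower through the lines or the tissues, while glial genes were called both ways. Of 23 enteric neuron genes 7 were called lower (30.4%, beside 13.0% of all genes) and 0 higher, with a median of -0.57. Without C57BL/6J tissue array 2 the lower calls were 4 (17.4%, beside 7.89%). Snap25, of the synaptic fusion machinery, read 7.61 to 8.31 in the C57BL/6J line and 2.76 to 2.89 in the tsA58 line, with 9.37 to 10.44 in the tissues (-5.33 ± 0.41, adjusted p = 6.35e-05). The neuronal ubiquitin hydrolase Uchl1 was at -4.21 ± 0.68 and lay in the lines too. Neuropeptide Y (Npy) lay in the tissues, at 5.94 and 6.42 in C57BL/6J tissue and 9.43 to 10.26 in tsA58 tissue (-4.27 ± 0.35, adjusted p = 9.08e-05). Among 12 glial genes 2 were called higher (16.7%, beside 7.30% of all genes; 1 without either C57BL/6J tissue array) and 4 lower (33.3%, beside 13.0%). The glial membrane protein Gpm6b (-2.28 ± 0.30) and the calcium-binding S100b (-2.01 ± 0.35) were lower, and the transcription factor Sox2 was higher (2.05 ± 0.30). The other S100b probe set gave -0.41. Sox2 was below the array medians in both lines (2.50 to 2.80) and read 7.83 and 8.09 in C57BL/6J tissue and 5.42 to 6.16 in tsA58 tissue.

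ICC genes differed mainly through the tissues. Of the 10 mature ICC genes tested, 3 were called lower (background 13.0%) and 0 higher, with a median of -0.46. Thbs4, a thrombospondin, read 4.16 and 4.53 in C57BL/6J tissue and 5.89 to 6.72 in tsA58 tissue (-1.95 ± 0.39, adjusted p = 0.00631). Prkcq, a protein kinase C of ICC, was at -1.24 ± 0.23. Cacna1h, a T-type calcium channel, was at -2.26 ± 0.58, and its call ended without C57BL/6J tissue array 1 (-2.24, adjusted p = 0.0713) or 2 (-2.27, adjusted p = 0.0699). All 3 were low in both lines (3.57 to 5.25). Kit (-0.81 ± 0.49, adjusted p = 0.264), the chloride channel Ano1 (0.98 ± 0.50, adjusted p = 0.187; -0.42 in its other probe set), the gap junction protein Gja1 (1.07 ± 0.39, adjusted p = 0.0708) and the mast cell protease Cpa3 (-1.07 ± 0.74) did not pass the threshold. Ano1 passed with array weights (1.10, adjusted p = 0.0259) and without tsA58 line array 2 (1.41, adjusted p = 0.0194). Gja1 passed with array weights (1.08, adjusted p = 0.0178) and without C57BL/6J line array 2 (1.30, adjusted p = 0.0376). Ednrb (0.13 ± 0.30), Rgs4 (-0.11 ± 0.50) and the ligand Edn3 (-0.05 ± 0.32) had strain differences smaller than their standard errors.

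Of the 9 genes of the ICC progenitor and receptor set, 3 were called higher (33.3%, beside 7.30% of all genes) and 1 lower (11.1%, near the 13.0% of all genes). Without C57BL/6J line array 1 or 2 or either C57BL/6J tissue array the higher calls fell to 1 of 9 (11.1%). In those rounds 633, 721, 485 and 457 of all 13285 genes were called higher, in that order. Prom1, a stem cell membrane protein, read 3.11 to 3.29 in the C57BL/6J line and 3.09 to 3.53 in the tsA58 line, 9.86 and 9.99 in C57BL/6J tissue and 6.59 to 8.09 in tsA58 tissue (2.56 ± 0.48, adjusted p = 0.00507), so its difference lay in tissue. The hyaluronan receptor Cd44 read 10.71 to 10.99 in the C57BL/6J line, 9.50 and 9.77 in its tissue, 10.67 to 11.74 in the tsA58 line, with 8.22 to 8.70 in tsA58 tissue. The lines overlapped, the strain difference was 1.48 ± 0.39 (adjusted p = 0.0228), and its other probe sets gave -0.21 and 0.38. The insulin-like growth factor receptor Igf1r was at 1.59 ± 0.47 (adjusted p = 0.0355) and read 7.77 to 8.15 in the C57BL/6J line and 8.61 to 9.40 in the tsA58 line. Pdgfra, the receptor of fibroblast-like interstitial cells, read 8.38 to 8.50 in the C57BL/6J line and 5.34, 5.80 and 8.10 in the tsA58 line (-2.64 ± 0.83, adjusted p = 0.0431). Array 3 of the tsA58 line thus read close to the C57BL/6J line, and without it the difference was -3.48. Over the 11 rounds that left out 1 array, the call of Pdgfra ended in 10 (-3.48 to -2.10, adjusted p up to 0.130), that of Igf1r in 7 (1.22 to 1.87, adjusted p up to 0.107) and that of Cd44 in 4 (1.18 to 1.71, adjusted p up to 0.0980). Kit ligand (Kitl, 0.78 ± 0.35), Cd34 (0.90 ± 0.48), Insr (-0.26 ± 0.58) and Igf1 (-1.93 ± 1.05) were not called. Cd34 passed with array weights (1.27, adjusted p = 0.0225) and without tsA58 line array 2 (1.30, adjusted p = 0.0259). Igf1 passed without tsA58 line array 1 (-2.74, adjusted p = 0.0465) and was at -1.07 without tsA58 line array 2.

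Several markers of other cells in the wall differed between the tissues, and some counts followed single arrays. Of 12 endothelial genes 5 were called lower (41.7%, beside 13.0% of all genes; 3 without either C57BL/6J tissue array, 25.0%) and 0 higher. The adhesion molecule Pecam1 read 4.21 and 4.78 in C57BL/6J tissue and 6.19 to 7.46 in tsA58 tissue (-2.45 ± 0.44, adjusted p = 0.00436), and von Willebrand factor (Vwf) was at -1.78 ± 0.36. Of 19 macrophage and leukocyte genes 5 were called lower (26.3%) and 2 higher (10.5%, near the 7.30% of all genes). The lower count changed with single arrays. It was 1 of 19 without C57BL/6J tissue array 1 and 2 without array 2. Both were near the shares of all genes in those rounds (1000 and 1048 of 13285 lower). Without tsA58 tissue array 1 it was 9 (all genes 1748 of 13285). Of 7 adipocyte genes 2 were called lower (28.6%; 4 without tsA58 tissue array 1), and their mean was 7.29 on both C57BL/6J tissue arrays and 7.47, 9.87 and 9.38 in tsA58 tissue, against at most 5.61 on the line arrays. The lipid droplet protein Plin4 was at -2.90 ± 0.51. Of 9 skeletal muscle genes tested, the creatine kinase Ckm was the 1 called (lower; 11.1%, near the 13.0% of all genes), and the median was -0.57. Ckm was at -2.56 ± 0.43 and its other probe set at -0.32. The simple epithelial keratin Krt8 differed between the lines and not, past the threshold, between the tissues. It read 8.46 to 10.08 in the C57BL/6J line, 4.88 to 5.27 in the tsA58 line, with 10.50 to 12.18 in the tissues (-3.23 ± 0.63, adjusted p = 0.00602; line difference -4.13 ± 0.42, tissue difference -0.90 ± 0.47 with adjusted p = 0.209).

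Signals of the exocrine pancreas and of the squamous forestomach epithelium differed between arrays of the same tissue. Exocrine pancreas genes averaged 11.60 and 6.65 on C57BL/6J tissue arrays 1 and 2, and 5.34, 10.39 and 5.94 in tsA58 tissue, with 4.15 to 4.28 in the lines. Genes of the squamous forestomach averaged 5.82 and 9.66 in C57BL/6J tissue and 5.32, 7.62 and 5.29 in tsA58 tissue. The medians of these lists, 1.85 over 11 genes and 1.90 over 12, therefore followed single arrays: without C57BL/6J tissue array 1 the pancreas median was -0.95, and without array 2 the squamous median was -0.51. Of the 11 pancreas genes 0 were called and of the 12 squamous genes 1 was, higher (Dsp; 8.33%, near the 7.30% of all genes). Without C57BL/6J tissue array 1, 4 squamous genes were called higher. Of 19 gastric epithelial genes 1 was called higher (Gast; 5 higher calls without tsA58 tissue array 2) and 1 lower (Krt8), 5.26% each way beside 7.30% and 13.0% of all genes. The part of these signals in the strain differences that lie in tissue was not tested.

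**Figure D4:**
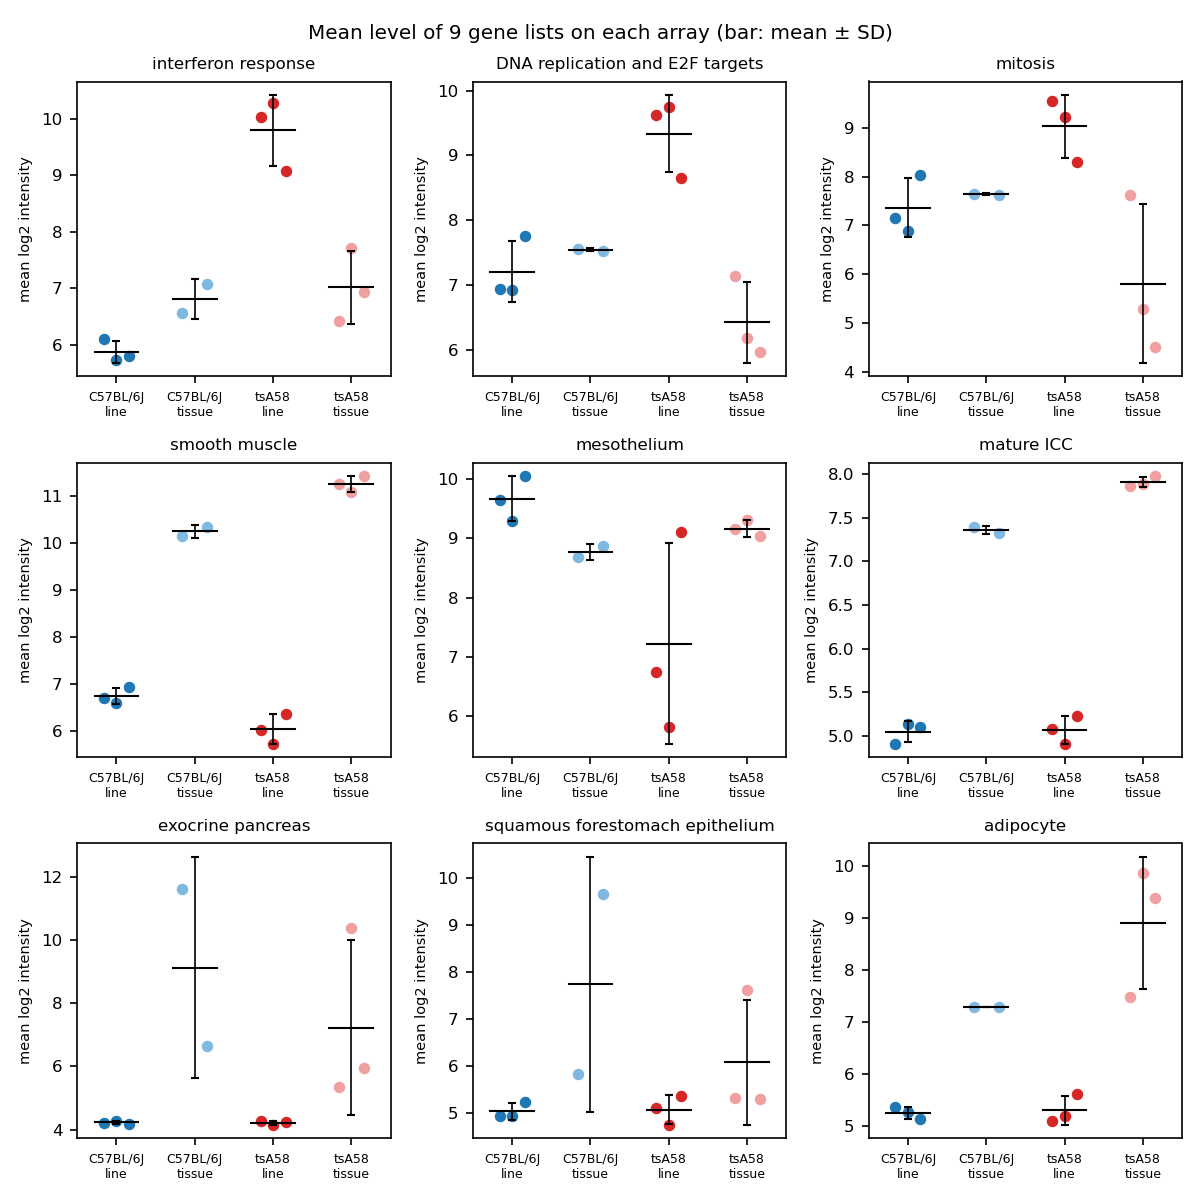
Mean log2 intensity of the tested genes of 9 lists on each array, by group, with the group mean and SD as black bars. Interferon genes are highest on the 3 tsA58 line arrays, mitosis genes are low on tsA58 tissue arrays 2 and 3 only, mesothelium genes are low on tsA58 line arrays 1 and 2 but not 3, and pancreas and squamous genes are high on 1 array of each tissue.

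Matrix genes were called lower about as often as all genes. Of 26 fibroblast and matrix genes 3 were called lower (11.5%, beside 13.0% of all genes; 6 without tsA58 line array 3) and 0 higher (3 without tsA58 tissue array 1). Of 12 proteases and inhibitors 3 were called lower (25.0%; 1 without either C57BL/6J tissue array) and 0 higher. Fibulin 1 (Fbln1) and Thy1 lay in tissue. Fbln1 read 7.83 and 7.88 in C57BL/6J tissue and 9.84 to 10.72 in tsA58 tissue (-3.13 ± 0.35), although 1 of its other probe sets gave 0.10, and Thy1 was at -2.59 ± 0.27. The gelatinase Mmp2 lay in the lines, at 9.68 to 10.33 in the C57BL/6J line and 6.52, 6.86 and 8.14 in the tsA58 line (-3.36 ± 0.59). The integrin subunit Itgb3 (-3.10 ± 0.58) and the adhesion molecule Icam1 (-2.95 ± 0.45) were the called members of 20 adhesion genes (10%, near the 13.0% of all genes; 7 lower without tsA58 line array 3, 4 without tsA58 tissue array 2). The other Itgb3 probe set gave -0.82. Icam1 read 10.13 to 10.38 and 9.02 to 9.69 in the lines and was higher in tsA58 tissue (6.23 to 7.33) than in C57BL/6J tissue (4.46 and 4.92).

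Secreted signals and their inhibitors gave some of the largest single values. Of 21 genes of the TGF-beta and BMP pathways 2 were called higher (9.52%, near the 7.30% of all genes; 1 without either C57BL/6J tissue array) and 6 lower (28.6%, beside 13.0%). Follistatin (Fst), which binds activins, read 3.87, 4.10 and 3.52 in the C57BL/6J line, 7.81 and 8.22 in its tissue, 9.07, 8.47 and 8.45 in the tsA58 line and 7.89, 7.73 and 6.75 in tsA58 tissue (5.39 ± 0.47, adjusted p = 0.000137). The C57BL/6J line alone stood apart. The BMP antagonist Grem1 (-2.81 ± 0.47), the latent TGF-beta binding protein Ltbp2 (-3.55 ± 0.35) and the ligand Bmp4 (-2.67 ± 0.52) were lower. Ltbp2 read 7.36 to 7.60 in the C57BL/6J line and 3.27 to 3.43 in the tsA58 line.

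Of 19 Wnt and hedgehog genes 3 were called higher (15.8%, beside 7.30% of all genes; 5 without tsA58 tissue array 1) and 2 lower (10.5%, near 13.0%). The Wnt antagonist Sfrp2 read 3.28 to 3.48 in the C57BL/6J line and 6.03 to 8.25 on every other array (3.72 ± 0.64, adjusted p = 0.00356). Dkk3, a secreted relative of the Dickkopf Wnt inhibitors, read 7.68 to 8.71 in the C57BL/6J line, 3.81 to 5.00 in the tsA58 line, with 7.88 to 9.63 in the tissues (-5.51 ± 0.48, adjusted p = 0.000137). The Wnt enhancer Rspo3 was at -3.40 ± 0.53. Of 12 Notch genes 2 were called higher (16.7%, beside 7.30%; 1 without either C57BL/6J tissue array), the receptor Notch1 and the ligand Jag1. Jag1 read 6.05 to 7.15 in the C57BL/6J line, 8.93 and 9.20 in its tissue, 8.03 to 8.76 in the tsA58 line, with 7.42 to 7.76 in tsA58 tissue (3.29 ± 0.44, adjusted p = 0.00109). Among 19 ligands of receptor tyrosine kinases 1 was called higher (5.26%; 0 without either C57BL/6J tissue array or tsA58 line array 1) and 3 lower (15.8%; 5 lower without tsA58 line array 1 or 3), both near the shares of all genes. The lymphatic growth factor Vegfc was at -4.92 ± 0.54, with 7.81 to 8.90 in the C57BL/6J line and 3.90 to 5.13 in the tsA58 line, and the epithelial growth factor Fgf7 was at -3.07 ± 0.63.

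Hox genes, which set position along the body axis, were called in both directions. Of 19 tested 4 were called higher (21.1%, beside 7.30% of all genes) and 7 lower (36.8%, beside 13.0%), and 2 and 5 without either C57BL/6J tissue array. The lower genes were Hoxa2, Hoxa3, Hoxa4, Hoxa5, Hoxb2, Hoxb5 and Hoxb6, and the higher ones Hoxb9, Hoxc4, Hoxc10 and Hoxd8. Hoxa5 read 9.21 to 9.55 in the C57BL/6J line, 8.43 and 8.67 in its tissue, 5.08 to 6.18 in the tsA58 line, with 8.89 to 9.73 in tsA58 tissue (-4.41 ± 0.44, adjusted p = 0.000277), and Hoxa4 was at -2.81 ± 0.55. The other Hoxa5 probe set gave -0.94. Hoxc10 read 5.35 to 6.40 in the tsA58 line and 2.83 to 3.41 on all other arrays (2.97 ± 0.37, adjusted p = 0.000841). Of 15 neural stem and neural crest genes 3 were called higher (20%, beside 7.30% of all genes) and 0 lower. Snai2, a repressor of epithelial genes, read 8.12 to 9.07 in the C57BL/6J line, 9.04 and 9.21 in its tissue, 8.89 to 11.21 in the tsA58 line, with 5.36 to 6.70 in tsA58 tissue (5.01 ± 0.83, adjusted p = 0.00301). Twist2 (2.29 ± 0.26) lay in the lines and Sox11 (2.93 ± 0.40) in C57BL/6J tissue, where it read 6.88 and 7.95 against 3.87 to 4.67 on all other arrays.

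Of 14 imprinted genes of the growth network 2 were called lower (14.3%, near the 13.0% of all genes) and 0 higher (3 higher without tsA58 tissue array 1). The non-coding RNA Meg3 read 12.06, 12.11 and 11.86 in the C57BL/6J line, 11.19 and 10.78 in its tissue, 4.41, 4.70 and 4.91 in the tsA58 line and 11, 9.34 and 8.45 in tsA58 tissue (-5.95 ± 0.74, adjusted p = 0.000792). Rian, a neighbouring transcript of the same imprinted domain, read 7.35 to 8.30 in the C57BL/6J line and 4.02 to 4.36 in the tsA58 line (-3.86 ± 0.70, adjusted p = 0.00432). Other probe sets above the filter gave -6.30 to 1.00 for Meg3 (7 of 10 with the same sign) and -1.06 to 4.40 for Rian (1 of 3), so for Rian the direction depended on the probe set. The tsA58 line was lower than every other array for the probe sets used.

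Metabolic and stress lists differed in how many of their genes were called. Of 20 glycolysis and hypoxia genes 8 were called lower (background 13.0%) and 0 higher, with a median of -0.82. The count was 5 without C57BL/6J tissue array 1, 4 without array 2 and 10 without tsA58 line array 3. Pfkfb3, an activator of glycolysis, read 7.94 to 8.16 in the C57BL/6J line, 4.89 and 5.42 in its tissue and 5.06 to 6.95 in tsA58 samples of both kinds (-3.46 ± 0.57, adjusted p = 0.00284). The other Pfkfb3 probe set gave only -0.35. The lactate exporter Slc16a3 was at -2.63 ± 0.58 and lay in the lines. Of 23 respiratory chain genes 0 were called, beside 20.3% of all genes. Their median was -0.39, beside -0.18 over all genes, and 19 lay below 0. With single arrays left out, at most 1 was called lower. Of 21 cholesterol and fatty acid synthesis genes 1 was called higher (4.76%) and 2 lower (9.52%), both below the shares of all genes, with the desaturase Scd1 at -3.85 ± 0.62. Scd1 read 6.91 and 7.04 in C57BL/6J tissue and 9.04, 11 and 10.74 on tsA58 tissue arrays 1 to 3. The adipocyte genes averaged 7.29 on both C57BL/6J tissue arrays and 7.47, 9.87 and 9.38 on the same tsA58 arrays. A link between Scd1 and the adipocyte genes was not tested. Of 15 heat shock genes 2 were called higher (13.3%, beside 7.30% of all genes) and 4 lower (26.7%, beside 13.0%). The higher count was 0 without C57BL/6J line array 1 or 2, either C57BL/6J tissue array or tsA58 tissue array 3. The small heat shock protein Hspb1 read 12.10 to 12.99 in the C57BL/6J line and 8.22 to 10.86 in the tsA58 line (-4.57 ± 0.78, adjusted p = 0.00336), and the inducible Hspa1a (-2.27 ± 0.39) read 3.29 to 3.81 in both lines, with 5.03 and 6.22 in C57BL/6J tissue and 7.53 to 7.62 in tsA58 tissue.

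**Figure D5:**
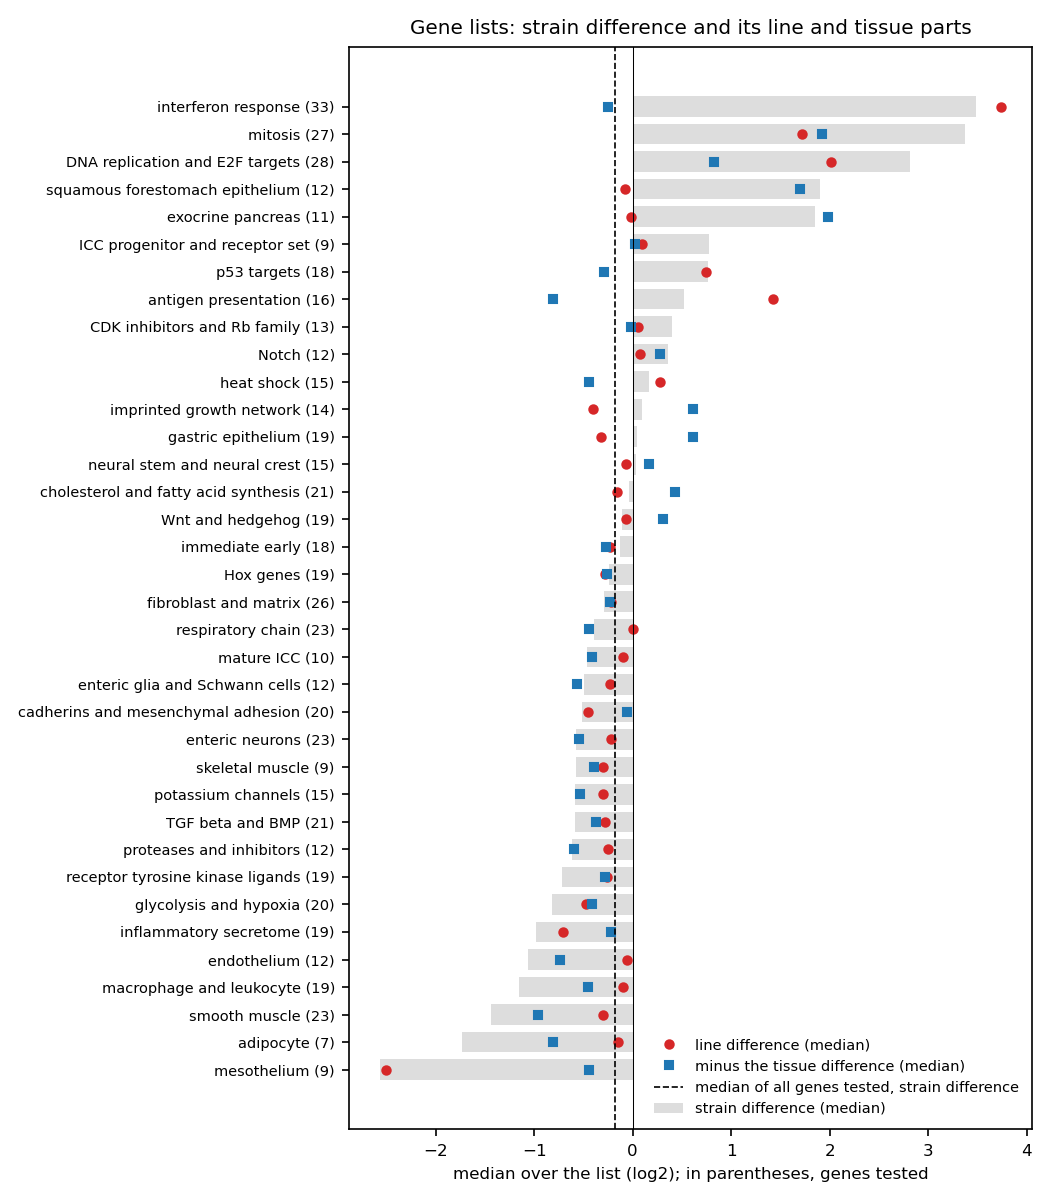
Median strain difference of each gene list with at least 7 genes tested (grey bars, log2), with the median line difference (red points) and the median tissue difference with its sign turned (blue squares). The dashed line is the median of all 13285 genes, -0.18. Interferon genes draw on the lines, mitosis genes on both parts, and pancreas and squamous genes on the tissues.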

How the data were processed

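Transcripts were measured on Affymetrix mouse genome arrays, 1 array per sample, from close to 50 ng of total RNA that was amplified in 2 rounds per the labels' protocols. The authors deposited 1 log2 intensity for each probe set and array, and the submitters' processing notes name RMA (version not given in the sources used here). RMA brings the arrays toward 1 distribution, so a change of most transcripts in 1 direction would be largely removed. The deposited values still differed between arrays, with medians of 4.66 to 4.84. The median tissue difference over all genes was 0.18. The number of arrays limits the precision.

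Of 45101 probe sets, 34945 carried 1 gene symbol in the platform annotation and 932 several. A gene was represented by its probe set of highest mean level and tested if above the array median on at least 2 arrays. The test was limma 3.58.1 in R 4.3.3 (lmFit, eBayes) with 4 group means over all arrays (7 residual and 3.49 prior degrees of freedom) and Benjamini-Hochberg adjustment over all genes tested. The test was tried on simulated data first. Other scripts ran in Python 3.11.15, pandas 2.3.3, numpy 2.4.6 and matplotlib 3.10.9. Promoter sequences are RefSeq's, of build GRCm38.p6, and the authors' values carry no coordinates.

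The members and all 41 gene lists (746 entries, 687 with a single-symbol probe set, 634 tested) were chosen with earlier results of these data known. Genes named were the 10 called genes highest and the 10 lowest in the strain difference, up to 4 called members of each list, all ICC genes, the 5 highest and 5 lowest of those called in opposite directions in the strains, and the sex and strain check genes, passing over uncharacterised models. Of the 126 called genes this gave, 41 lost the call when some single array was left out. Those are given singly only where they are ICC genes, mitosis genes, H2-K1 or Olr1. Outside the naming rule, the remaining called members of the antigen presentation and Hox lists were named after their values were seen. Ifit1, Rsad2, Oas1a, Gbp3 and Mcm6 were also outside it. Alternatives were other scalings, filters and fits, the mean of all probe sets of a gene, and each array left out.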

Additional observations from a re-analysis of the deposited data

Results flagged for a closer look

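The line-minus-tissue difference of the tsA58 arrays differed from that of the C57BL/6J arrays, by the interaction term of the limma model, for 2702 of the 13285 genes tested, with 1 clone per strain. The values below are the strain differences of the genes given singly that passed that test, in log2 units.

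The genes highest in the tsA58 change relative to the C57BL/6J change were Ly6e (10.11), Iigp1 (7.41), Rrm2 (7.07), Rtp4 (7.04), Usp18 (6.70), Pclaf (6.39), Bpifb1 (6.10), Dscc1 (6.03), Fignl1 (5.97), Macc1 (5.89), Ccne2 (5.54), Oas1a (5.47), Cdc6 (5.45), Fst (5.39), Rsad2 (5.19), Bub1 (5.17), Mki67 (5.16), Nlrc5 (5.14) and Snai2 (5.01). Next in size among the higher genes were Top2a (4.97), Birc5 (4.91), Mcm5 (4.69), Ifit1 (4.66), Gbp3 (4.13), Ccl5 (4.11), Sfrp2 (3.72), Cxcl10 (3.42) and Jag1 (3.29). The smallest of the higher values were Hoxc10 (2.97), Sox11 (2.93), Mcm6 (2.71), H2-D1 (2.67), Prom1 (2.56), H2-K1 (2.47), Gtse1 (2.34), Twist2 (2.29), Sox2 (2.05), Nnt (1.83), Igf1r (1.59) and Cd44 (1.48).

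The genes lowest in the tsA58 change relative to the C57BL/6J change were Mgp (-6.91), Itgb2 (-6.83), Myl9 (-6.78), Tmem45a (-6.53), Gpm6a (-6.35), Meg3 (-5.95), Olr1 (-5.69), Ctsf (-5.64), Ddx4 (-5.62), Dkk3 (-5.51), Hmgcll1 (-5.49), Chn1 (-5.47), H2-Eb1 (-5.46) and Snap25 (-5.33). Next in size among the lower genes were Vegfc (-4.92), Hspb1 (-4.57), Hoxa5 (-4.41), Npy (-4.27), Uchl1 (-4.21), Rian (-3.86), Scd1 (-3.85), Ltbp2 (-3.55), Pfkfb3 (-3.46), Rspo3 (-3.40), Mmp2 (-3.36), Krt8 (-3.23), Kcnh2 (-3.18), Fbln1 (-3.13), Itgb3 (-3.10), Fgf7 (-3.07) and Cxcl1 (-3.01). Smaller lower values were Icam1 (-2.95), Plin4 (-2.90), Smtn (-2.88), Msln (-2.82), Hoxa4 (-2.81), Grem1 (-2.81), Cxcl2 (-2.78), Bmp4 (-2.67), Des (-2.66), Pdgfra (-2.64) and Slc16a3 (-2.63). The smallest of the lower values were Thy1 (-2.59), Kcnmb1 (-2.58), Ckm (-2.56), Pecam1 (-2.45), Gpm6b (-2.28), Hspa1a (-2.27), Cacna1h (-2.26), S100b (-2.01), Thbs4 (-1.95), Vwf (-1.78) and Prkcq (-1.24).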

How the results depend on the processing

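Centring on the hybridisation controls shifted the median strain difference of all genes by -0.64 and gave 577 called genes in place of 2702 (127 higher, 450 lower), with 7678 between the lines and 12185 between the tissues. Array weights gave 4365 called genes (1892 higher) and 2845 between the lines, and the 3' to 5' actin ratio as a covariate gave 3245 between the lines. The cause was not tested. Quantile normalisation, cyclic loess, the filters, the mean of all probe sets and the trended robust fit kept the count within 1.5 times. With each array left out in turn, the called genes ranged from 1485 to 3700 (higher 457 to 1592, lower 1000 to 2108). The ranges were 1350 to 2680 between the lines, 817 to 1912 between the tissues, 3947 to 4551 in the tsA58 change and 3894 to 4644 in the C57BL/6J change.

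A fit with the replicate number as a block (replicate block) gave 2267 called genes (749 higher, 1518 lower). Deviations of same-numbered arrays correlated at -0.16 to 0.25, so the numbers were not taken to pair the arrays.

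Of the 93 called genes given singly, 67 kept the call under all alternatives run and 75 kept it with centring on the hybridisation controls. Rian was the 1 called gene that turned sign, to 0.0668 with the mean of all probe sets. Of the 17 genes given singly that were not called, 8 passed under some alternative (Kdm5d, Eif2s3y, Xist, Uty, Ano1, Gja1, Cd34 and Igf1). Among genes not called, Ednrb turned to -0.51 with centring on the hybridisation controls, -0.0293 with the mean of all probe sets, -0.0380 without C57BL/6J line array 1 and -0.0233 without tsA58 tissue array 3. Rgs4 turned to 0.14 with quantile normalisation, 0.27 with array weights, and 0.21 and 0.0396 without tsA58 tissue arrays 1 and 2 (-0.59 to 0.21 over the arrays left out). Edn3 turned to 0.0889 with quantile normalisation, 0.000116 with cyclic loess, and 0.0709, 0.00145, 0.0362 and 0.10 with C57BL/6J line array 1, tsA58 line array 1 and tsA58 tissue arrays 2 and 3 left out (-0.28 to 0.10 over all left out). Kitl turned to -0.15 and Ide to -0.17 with the mean of all probe sets, and Insr to 0.10, 0.18 and 0.00197 without C57BL/6J tissue array 2, tsA58 line array 3 and tsA58 tissue array 3. Of the 41 list medians, 41 stayed within 1 standard error with quantile normalisation or cyclic loess, against 12 after centring on the hybridisation controls.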
